A study of Mus musculus with 6 samples.

Results

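The 7 genes described here encode proteins that let a phagocyte recognise and take up a dying cell, a process called efferocytosis. They were the 3 TAM receptors *Tyro3*, *Axl* and *Mertk*, the bridging ligands *Gas6*, *Pros1* and *Mfge8*, and the scavenger receptor *Stab1*, chosen by name and found by their NCBI gene identifiers as 7 of the 19790 genes in a table of RNA-seq read counts. The counts came from gonadal white adipose tissue (gWAT), a visceral depot that borders the male reproductive tract, of wild-type C57BL/6 male mice fed a normal chow diet (NCD, 3 mice) or a high-fat diet (HFD, 3 mice) for 8 weeks. Feeding began at the age of 6 weeks by the labels and of 8 weeks by the study's methods, and the labels name no agent beside the diets. The labels call all mice wild type, while the methods also use WT for *Tmem86a* flox/flox mice without Cre, and which of these the sequenced mice were is not stated. The question the comparison addresses is how HFD feeding changes transcript levels in this fat pad. All 7 genes passed the filter on low counts that left 15241 genes to test.

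An apoptotic cell exposes phosphatidylserine on its surface. The vitamin K-dependent proteins growth arrest-specific 6 (encoded by *Gas6*) and protein S (*Pros1*) bind this lipid through carboxylated glutamate residues and carry it to the TAM receptor tyrosine kinases, so that engulfment and a dampening of inflammatory signalling follow. Gas6 binds all TAM receptors, whereas protein S is a ligand of Tyro3 and Mertk. Lactadherin (*Mfge8*) bridges the same lipid to the αv integrins, and stabilin-1 (*Stab1*) binds it directly. In obese fat pads, macrophages gather around dead adipocytes in crown-like structures, which is where clearance of dying cells has mostly been described in this tissue.

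Upstream sequence is shown for the 3 genes that passed the edgeR test of the diets with all mice or without NCD mouse 1, and for *Mertk*, which passed neither. Each line is the 250 bases before a transcript start annotated in RefSeq (GRCm38.p6, the build named in the submitters' processing notes), written 5′ to 3′ on the gene's own strand, with capitals marking matches to any of 6 motifs searched on both strands. The windows lie at chr7:79149061-79149310 on the minus strand for *Mfge8*, chr16:62854057-62854306 on the plus strand for *Pros1*, chr14:31168642-31168891 on the minus strand for *Stab1* and chr2:128698665-128698914 on the plus strand for *Mertk*. The outer bound of the *Stab1* gene given further on reaches 10 bases into its window, which precedes a transcript start inside that bound.
Mfge8: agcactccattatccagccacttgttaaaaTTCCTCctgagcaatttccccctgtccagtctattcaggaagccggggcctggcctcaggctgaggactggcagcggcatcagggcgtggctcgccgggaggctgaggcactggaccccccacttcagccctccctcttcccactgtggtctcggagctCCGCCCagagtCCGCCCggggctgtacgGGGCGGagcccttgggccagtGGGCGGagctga
Pros1: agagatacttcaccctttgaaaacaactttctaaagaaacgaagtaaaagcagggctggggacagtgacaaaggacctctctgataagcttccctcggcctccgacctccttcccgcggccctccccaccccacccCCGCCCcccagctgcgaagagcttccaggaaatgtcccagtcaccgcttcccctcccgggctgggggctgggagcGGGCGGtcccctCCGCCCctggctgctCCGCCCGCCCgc
Stab1: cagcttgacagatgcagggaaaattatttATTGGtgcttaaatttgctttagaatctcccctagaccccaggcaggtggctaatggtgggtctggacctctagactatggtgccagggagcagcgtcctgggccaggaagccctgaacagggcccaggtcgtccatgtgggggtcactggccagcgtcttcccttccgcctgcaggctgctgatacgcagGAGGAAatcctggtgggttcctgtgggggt
Mertk: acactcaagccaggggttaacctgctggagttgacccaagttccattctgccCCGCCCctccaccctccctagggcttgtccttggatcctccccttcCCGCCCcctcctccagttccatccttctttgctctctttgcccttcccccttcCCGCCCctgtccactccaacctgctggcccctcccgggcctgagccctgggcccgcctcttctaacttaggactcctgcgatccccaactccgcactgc
The Sp1 box, GGGCGG, was matched 4 times before *Mfge8*, 5 times before *Pros1* (the last 2 matches overlap), 3 times before *Mertk* and not before *Stab1*, and 33% of the 32536 promoters of this length held at least 1 match. GAGGAA, the core sequence bound by the myeloid factor PU.1, was matched once before *Stab1* at 30 bases from the start and once before *Mfge8* at 220 bases, against 23.4% of all promoters. The only other match in these windows was CCAAT before *Stab1*, at 221 bases, a motif in 33.8% of promoters. TATAAA (12.3% of promoters), the AP-1 site TGANTCA (6.73%) and the E-box CACGTG (6.04%) were not matched in any of the 7 members' windows. These matches are descriptions of letters and not of occupied sites.

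Library totals ran from 49575113 to 66360046 counts. The NCD libraries held RNA of the seminal vesicle, the gland next to this fat pad: 11 of its secretion genes took 58.6%, 11.2% and 2.30% of all counts in NCD mice 1, 2 and 3 and at most 1.21e-05% in each HFD mouse. Smooth muscle markers followed the same order, with summed levels of 6747, 826 and 279 CPM (scaled counts) in NCD mice 1 to 3 and 258 to 358 CPM on HFD, as did 12 epithelial markers (1785, 186 and 51.5 CPM against 41.6 to 138 CPM). The fits of the 7 genes are therefore given with all 6 mice and without NCD mouse 1. CPM, the unit of levels here, are read counts relative to the library total after TMM scaling, which sets libraries to a common level in the bulk of genes, and FPKM are the same values per kilobase of annotated exon. Adipocyte markers, which define the labelled tissue, were present in all mice. Their sum was 4305, 15651 and 21109.6 CPM in NCD mice 1 to 3 and 9133, 8290 and 5744 CPM in HFD mice 1 to 3. NCD mouse 1 was thus the lowest of the 6, and NCD mice 2 and 3 lay above every HFD mouse. The summed level of 10 macrophage markers was 390.1, 947 and 857 CPM in NCD mice 1 to 3 and 3613, 2430.0 and 3125 CPM in HFD mice 1 to 3, with none at 0 in any mouse.

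*Mertk*, the TAM receptor that tissue macrophages use most for uptake of dying cells, lies at chr2:128698915-128803162. It was measured at 42.0, 55.1 and 71.9 CPM in NCD mice 1, 2 and 3 and at 73.8, 53.5 and 71.4 CPM in HFD mice 1, 2 and 3. The diets overlapped, and HFD mouse 2 lay below 2 of the NCD mice. The log2 fold change on HFD was 0.23 ± 0.24 (SE; edgeR quasi-likelihood test, adjusted p = 0.545), and without NCD mouse 1 it was 0.08 ± 0.20 (adjusted p = 0.811). A rise in *Mertk* was not detected, while the summed level of the macrophage markers was higher in every HFD mouse than in any NCD mouse.

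*Axl* (chr7:25756500-25788924), the TAM receptor that answers to Gas6 and is known for its induction in inflamed tissue, was at 112, 102 and 34.0 CPM in NCD mice 1 to 3 and at 165, 115 and 167 CPM in HFD mice 1 to 3. Every HFD mouse lay above every NCD mouse, but HFD mouse 2 exceeded NCD mouse 1 by little, and NCD mouse 3 stood well below the others. The log2 fold change was 0.85 ± 0.45 (adjusted p = 0.260) with all mice and 1.15 ± 0.47 (adjusted p = 0.139) without NCD mouse 1. DESeq2 gave an adjusted p of 0.197 with all mice and of 0.0471 without NCD mouse 1. Without NCD mouse 3 the edgeR estimate was 0.50, so the size of the difference rested on that mouse.

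*Tyro3* (chr2:119797740-119818104), the TAM receptor best known from the nervous system, was the least counted of the 7 genes, at 58 to 209 counts a mouse. Its level was 2.19, 1.86 and 1.08 CPM on NCD and 1.91, 2.51 and 2.104 CPM on HFD, and the diets overlapped. The log2 fold change was 0.35 ± 0.36 (adjusted p = 0.545), and 0.58 ± 0.37 without NCD mouse 1 (adjusted p = 0.302).

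*Stab1* (chr14:31139017-31168651) encodes stabilin-1, a receptor of sinusoidal endothelium and of resident macrophages that takes up modified lipoproteins and phosphatidylserine-bearing cells. Its level was 47.6, 103 and 104 CPM in NCD mice 1 to 3 and 195, 246 and 293 CPM in HFD mice 1 to 3, so that the lowest HFD mouse exceeded the highest NCD mouse. The log2 fold change of 1.52 ± 0.35 missed the threshold of 0.05 with all mice (adjusted p = 0.0546) and passed it without NCD mouse 1, where *Stab1* rose by 1.25 ± 0.21 on the log2 scale (adjusted p = 0.0152). *Stab1* shares 112 exon bases with *Nt5dc2* on the opposite strand, and whether the counting used strand is not stated by the labels or the methods. *Nt5dc2* held 4327 counts over all mice, fewer than *Stab1* held in any HFD mouse alone. The summed level of 8 endothelial markers, the other cell type that carries stabilin-1, was 241, 716 and 850 CPM on NCD and 832 to 984 CPM on HFD. For 6 lymphatic endothelial markers it was 98.5, 68.9 and 68.9 CPM on NCD and 42.2, 88.4 and 31.0 CPM on HFD. The part of these cells in the result was not tested.

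**Figure D1:**
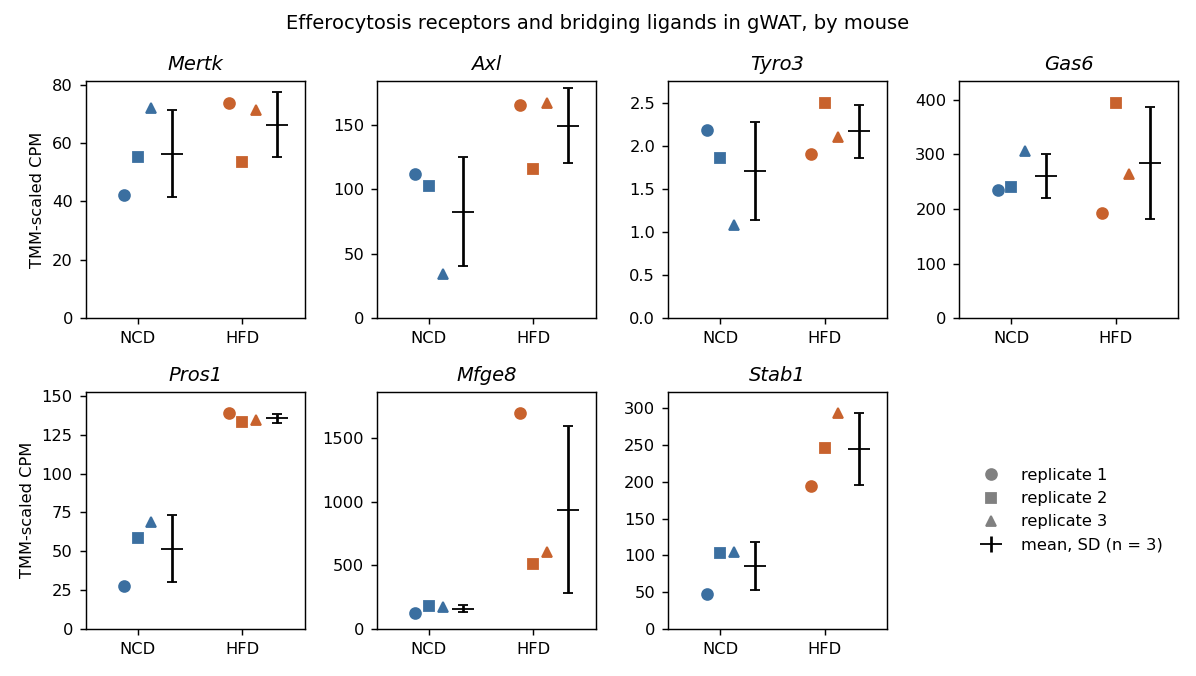
Level of each of the 7 genes in each mouse, in TMM-scaled CPM, on axes that start at 0. Symbols are mice, with the shape giving the replicate number, and the horizontal and vertical bars are the mean and SD of each diet (3 mice). The diets do not overlap for *Axl*, *Pros1*, *Mfge8* and *Stab1*, and they overlap for *Mertk*, *Tyro3* and *Gas6*.

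Among the ligands, *Gas6* (chr8:13465374-13494535) differed least between the diets. It was at 235, 240.0 and 307 CPM on NCD and at 192, 395 and 265 CPM on HFD, and the HFD mice held both the lowest and the highest value of the 6. The log2 fold change was 0.12 ± 0.30 (adjusted p = 0.808), and 0.07 ± 0.32 without NCD mouse 1 (adjusted p = 0.898). Its sign turned to -0.17 when HFD mouse 2 was left out.

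*Pros1* (chr16:62854307-62929346), which encodes the anticoagulant protein S, was at 27.5, 58.3 and 69.1 CPM on NCD and at 139, 133 and 134 CPM on HFD. The HFD mice were nearly identical, with a mean of 136 ± 2.90 CPM (SD), and all lay above the NCD mice, whose mean was 51.6 ± 21.6 CPM. With all mice the log2 fold change was 1.39 ± 0.34 (adjusted p = 0.061). Without NCD mouse 1, the lowest of the 6, *Pros1* rose by 1.10 ± 0.13 on the log2 scale (adjusted p = 0.00765).

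*Mfge8* (chr7:79133768-79149060), the secreted bridge to the αv integrins, showed the largest difference of the 7 genes. It was at 125, 182 and 169 CPM in NCD mice 1 to 3 and at 1693, 509 and 606 CPM in HFD mice 1 to 3. The diets did not overlap, and HFD mouse 1 was far above the other HFD mice. *Mfge8* rose by 2.56 ± 0.54 on the log2 scale (5.90-fold, adjusted p = 0.0449) with all mice and by 2.43 ± 0.60 (adjusted p = 0.0408) without NCD mouse 1. Without HFD mouse 1 the estimate was 1.82 and the call was lost, as it was when any of the other mice except NCD mouse 1 was left out.

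**Figure D2:**
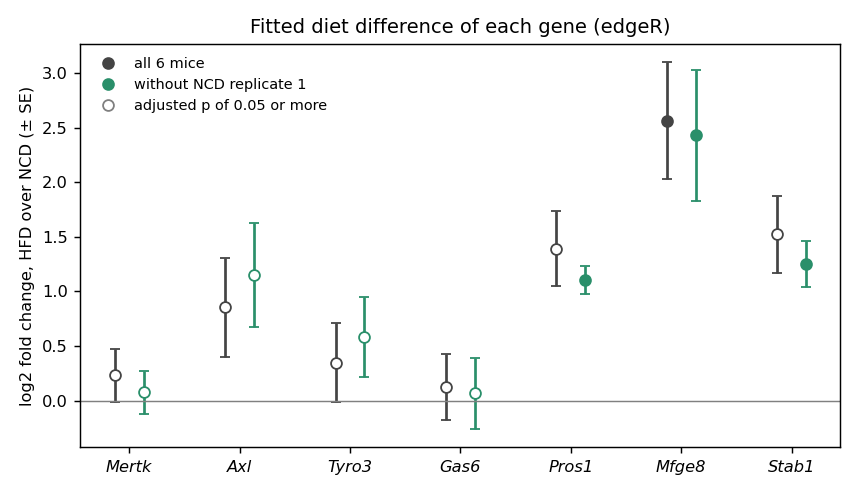
Log2 fold change on HFD for each gene (points) with its standard error (bars), from edgeR with all 6 mice and without NCD mouse 1; filled points passed an adjusted p of 0.05. The estimates run from 0.12 for *Gas6* to 2.56 for *Mfge8* with all mice, and *Pros1* and *Stab1* pass only without NCD mouse 1.

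Counted together, 1 of the 7 genes was higher on HFD with all mice (*Mfge8*) and none was lower, where 5.58% of all tested genes were called higher and 1.9% lower. Without NCD mouse 1, 3 of 7 were called higher (*Pros1*, *Mfge8* and *Stab1*) and none lower, against 10.7% higher and 10.1% lower among all genes. DESeq2 called the same 3 genes with all mice (14.1% of all genes higher) and added *Axl* without NCD mouse 1 (18.1%). Every HFD mouse exceeded every NCD mouse for 4 of the 7 genes, as it did for 20.5% of all genes. The median log2 fold change of the 7 genes was 0.85 with all mice, beside -0.08 for all genes, and 1.10 beside 0.02 without NCD mouse 1. The 7 genes were chosen with earlier results of these data known, so these counts and medians are a description. In whole tissue, more cells that hold a transcript and more transcript in each cell cannot be told apart.

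Levels of different genes were compared per exon length. *Gas6* was the most abundant of the 7 transcripts in every NCD mouse, at 92.3 to 120.4 FPKM, and *Mfge8* the second, at 58.9 to 85.6 FPKM. On HFD the order of these ligands was the reverse in all 3 mice, with *Mfge8* at 239 to 796 FPKM and *Gas6* at 75.4 to 155 FPKM. *Pros1* was in the third place in every HFD mouse, at 40.4 to 42.0 FPKM, followed by *Axl* (26.9 to 39.0 FPKM) and *Stab1* (24.4 to 36.7 FPKM), whose ranges overlap. *Mertk* was the sixth in every HFD mouse, at 12.4 to 17.2 FPKM. On NCD the mean levels of *Axl* (19.3 ± 9.89 FPKM, SD), *Pros1* (15.6 ± 6.54), *Mertk* (13.1 ± 3.48) and *Stab1* (10.6 ± 4.07) came from ranges over the mice that overlapped for every pair of these genes. *Tyro3* was the lowest in every mouse, at 0.223 to 0.519 FPKM.

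Within the TAM family, *Axl* made up 68.8%, 67.5% and 69.6% of the receptors' summed FPKM in HFD mice 1 to 3 and *Mertk* 30.5%, 31.2% and 29.6%. The NCD mice were far apart, with *Axl* at 71.8%, 64.4% and 31.9% in mice 1 to 3 and *Mertk* at 26.9%, 34.6% and 67.2%. NCD mouse 3 was the only mouse with more *Mertk* than *Axl*, at a ratio of 2.104, where the other NCD mice had ratios of 0.375 and 0.537 and the HFD mice 0.426 to 0.461. The log2 ratio of *Mertk* to *Axl* differed by -0.76 in mean (HFD minus NCD), with an exact two-sided permutation p = 0.5. The difference was -1.26 without NCD mouse 1 (exact permutation p = 0.1, the smallest possible) and -0.02 without NCD mouse 3.

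**Figure D3:**
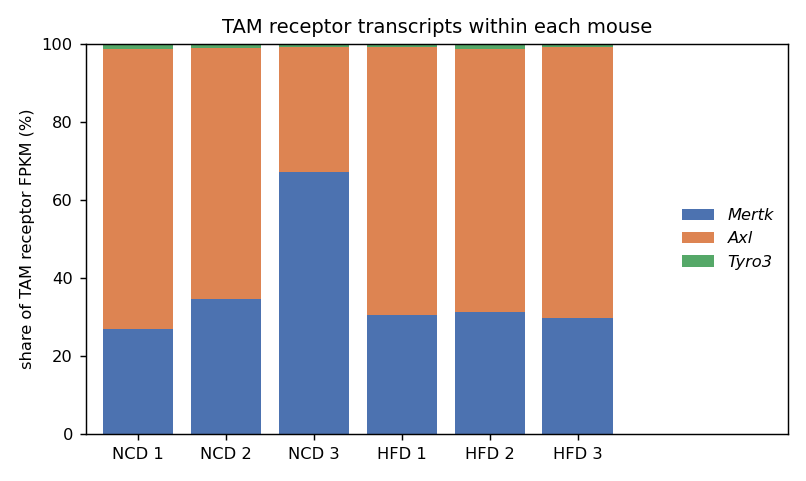
Share of *Mertk*, *Axl* and *Tyro3* in their summed FPKM in each mouse, in percent, as stacked bars that reach 100%. *Axl* holds 67.5% to 69.6% in the HFD mice, 71.8% and 64.4% in NCD mice 1 and 2 and 31.9% in NCD mouse 3.

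The ligands of the TAM receptors differed in their balance. In FPKM, *Gas6* exceeded *Pros1* 11.1-, 5.33- and 5.75-fold in NCD mice 1 to 3 and 1.79-, 3.84- and 2.55-fold in HFD mice 1 to 3, without overlap between the diets. The difference in mean log2 ratio was -1.43 (HFD minus NCD, exact two-sided permutation p = 0.1, the smallest that 3 against 3 mice allow). It was -1.09 without NCD mouse 1, where the exact permutation p was 0.2. A ratio of genes within a library does not depend on the scaling between libraries.

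Set against the macrophage markers (the geometric mean of the 10 genes in CPM), 6 of the 7 genes had a lower mean ratio on HFD. Mean marker log2 CPM was 4.59, 5.81 and 5.56 in NCD mice 1 to 3 and 7.56, 7.39 and 7.85 in the HFD mice. A gene with the same level on both diets would therefore also have a lower ratio on HFD. The share of all genes with a lower ratio was not computed. The ratio of *Mertk* to the markers was 1.74, 0.983 and 1.53 in NCD mice 1 to 3 and 0.391, 0.318 and 0.310 in HFD mice 1 to 3, a difference of -2.03 in mean log2 ratio with no overlap (exact two-sided permutation p = 0.1), or -1.86 without NCD mouse 1. For *Stab1* the ratio was 1.97, 1.85 and 2.22 on NCD and 1.03, 1.46 and 1.27 on HFD, a log2 difference of -0.69, again without overlap (exact two-sided permutation p = 0.1), or -0.70 without NCD mouse 1. For *Axl* the diets overlapped, with a log2 difference of -1.27 (exact two-sided permutation p = 0.3). It was -0.60 without NCD mouse 1 and -1.94 without NCD mouse 3, where the exact permutation p was 0.1.

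The same ratios of the other 4 genes were added after their levels had been seen. They differed by -2.21 for *Gas6*, -1.88 for *Tyro3* and -0.79 for *Pros1* on the log2 scale, without overlap of the diets, each with an exact permutation p = 0.1, and by -1.92, -1.31 and -0.83 without NCD mouse 1. *Mfge8* was at 5.19, 3.25 and 3.58 times their mean level in NCD mice 1 to 3 and 8.98, 3.02 and 2.63 times in HFD mice 1 to 3 (log2 difference 0.08, exact permutation p = 1, or 0.28 without NCD mouse 1). HFD mice 2 and 3 lay below every NCD mouse and HFD mouse 1 above, and without HFD mouse 1 the log2 difference was -0.48 (exact permutation p = 0.2). Adjusted over all 9 ratios computed, the smallest p was 0.15. With 3 against 3 mice the exact permutation p cannot fall below 0.1, so none of these differences could pass a threshold of 0.05. Of the markers themselves, 6 of 10 were called higher with all mice, where 5.58% of all tested genes were. Without NCD mouse 1, 8 of 10 were, against 10.7% of all genes. *Cd163*, a scavenger receptor of resident macrophages, was the exception in direction, with a log2 fold change of -0.07 ± 0.39 (adjusted p = 0.921).

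**Figure D4:**
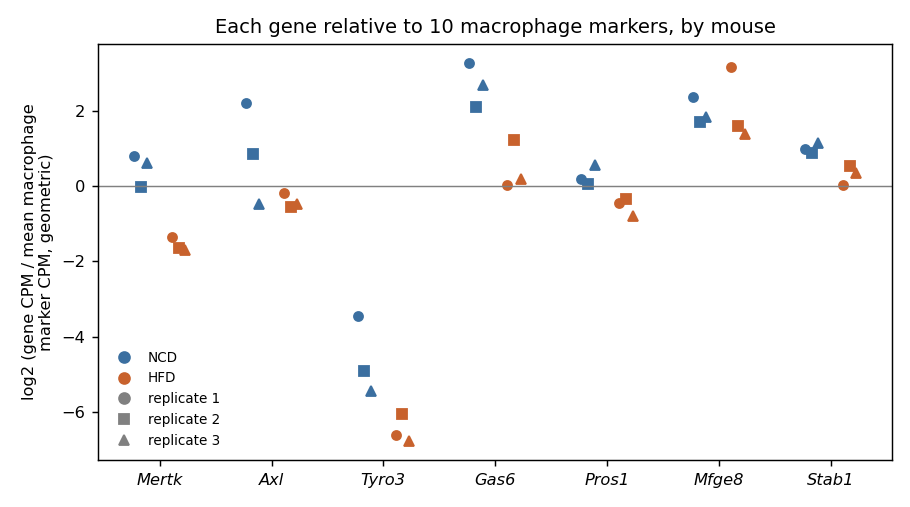
Log2 ratio of each of the 7 genes to the mean of 10 macrophage markers in each mouse, with colour giving the diet and symbol shape the replicate number. The HFD points lie below all NCD points for *Mertk*, *Tyro3*, *Stab1*, *Gas6* and *Pros1*, and the diets overlap for *Axl* and *Mfge8*. The markers were higher on HFD, so a gene with the same level on both diets would also lie lower on HFD.

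The other genes of the pathway were taken from 5 lists of 100 genes, of which 94 were tested with all mice and 95 without NCD mouse 1. With all mice 25 were called higher and none lower, where 5.58% of all tested genes were called higher and 1.9% lower. Without NCD mouse 1, 35 were higher and 3 lower, where 10.7% and 10.1% of all genes were. These background shares hold for each list below. The lists were chosen with earlier results of these data known, so the counts are a description and no test of the lists. All 25 genes called with all mice were also called higher without NCD mouse 1, with log2 fold changes from 0.84 to 4.32 there, so that values of named genes are given with all mice unless stated. Over all tested genes of the 5 lists, the median log2 fold change was 0.50 with all mice and 0.63 without NCD mouse 1, beside -0.08 and 0.02 for all genes. In the same mice the macrophage marker sum was higher in every HFD mouse than in every NCD mouse, and its part in these counts was not tested.

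Among other receptors for dying cells, 8 of 21 tested were higher with all mice and 11 of 21 without NCD mouse 1, and none was lower (median log2 fold change 1.38 with all mice). The largest rises among genes past the threshold were of *Stab2*, *Trem2* and *Cd300lb*. *Stab2*, the paralogue of *Stab1*, was at 0.0609 to 0.167 CPM on NCD and 6.95, 1.11 and 1.23 CPM on HFD (log2 fold change 4.55 ± 0.97, adjusted p = 0.0464). It held 2, 10 and 8 counts in NCD mice 1 to 3 and 401, 93 and 77 in the HFD mice. *Stab2* thus passed the filter on low counts through the HFD mice alone, and its fold change rests on NCD values near 0. *Trem2*, a lipid receptor of macrophages, was at 4.38 to 9.73 CPM on NCD and 58.1 to 167 CPM on HFD (3.68 ± 0.54, adjusted p = 0.0235). The phosphatidylserine-binding *Cd300lb* rose by 3.66 ± 0.53 on the log2 scale (adjusted p = 0.0235). Its relative *Cd300a* rose by 3.60 ± 0.42 on the log2 scale (adjusted p = 0.0212). *Itgav*, the integrin chain to which lactadherin binds, rose less, from 41.0 to 48.2 CPM on NCD to 81.5 to 86.7 CPM on HFD (0.94 ± 0.13, adjusted p = 0.0223). Its partner chains did not pass, with log2 fold changes of 0.05 ± 0.49 for *Itgb3* (adjusted p = 0.953) and 0.59 ± 0.33 for *Itgb5* (adjusted p = 0.283). *Timd4* encodes the tethering receptor of resident macrophages. It was at 1.77, 6.42 and 5.88 CPM in NCD mice 1 to 3 and 2.05, 3.57 and 1.77 CPM in the HFD mice. Its log2 fold change was -0.93 ± 0.56 (adjusted p = 0.308) with all mice. Without NCD mouse 1 the log2 fold change of *Timd4* was -1.30 ± 0.35 (edgeR adjusted p = 0.0515, DESeq2 adjusted p = 0.00563).

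Of the other opsonins and ligands, 5 of 13 were higher with all mice and 5 of 14 without NCD mouse 1, with none lower (median 1.48 with all mice). *Thbs1*, thrombospondin-1, which links dying cells to CD36 and αv integrin, was at 22.6 to 36.6 CPM on NCD and 413 to 824 CPM on HFD (4.30 ± 0.38, adjusted p = 0.0192). *Lgals3*, galectin-3, also known as a Mertk ligand, was at 37.5 to 113 CPM and 455 to 1311 CPM (3.34 ± 0.61, adjusted p = 0.0341), and its highest mouse was HFD mouse 1, as for *Mfge8*. The chains of complement C1q rose together, by 1.48 ± 0.29 for *C1qa*, 1.95 ± 0.32 for *C1qb* and 1.69 ± 0.32 for *C1qc* on the log2 scale (adjusted p = 0.0407, 0.0271 and 0.0365). The Mertk ligands *Tub* and *Tulp1* were at or below 1.25 CPM in every mouse and did not pass (adjusted p = 0.395 and 0.484).

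Of the engulfment machinery, 6 of 25 genes were higher with all mice and none lower (median 0.31). *Vav1*, *Dock2* and *Rac2*, the exchange factors and the small GTPase of blood-cell lineages, rose by 2.61 ± 0.34, 2.29 ± 0.37 and 1.93 ± 0.31 on the log2 scale (adjusted p = 0.0219, 0.0259 and 0.0258). Their broadly expressed relatives did not pass, at -0.11 ± 0.14 for *Dock1* (adjusted p = 0.614) and 0.33 ± 0.18 for *Rac1* (adjusted p = 0.264). Without NCD mouse 1, 11 genes were higher, among them the lysosomal lipase gene *Lipa* (2.29 ± 0.60, adjusted p = 0.0468), and *Arhgef16*, at 4.48 and 1.04 CPM in NCD mice 2 and 3 and 0.225 to 0.462 CPM on HFD, was lower (-2.89 ± 0.70, adjusted p = 0.0389). *Arhgef16* was at 41.5 CPM in NCD mouse 1, the mouse richest in epithelial and smooth muscle markers.

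Of the signals that dying and living cells display, 3 of 20 were higher with all mice and 4 of 20 without NCD mouse 1, with none lower (median 0.38 with all mice). The first 3 were the nucleotide receptor *P2ry6* (2.43 ± 0.30, adjusted p = 0.0212), the nucleotide channel *Panx1* (2.09 ± 0.39, adjusted p = 0.036) and *Sirpa*, the phagocyte receptor for the "do not eat" signal CD47 (1.84 ± 0.28, adjusted p = 0.024). *Cd47* itself was at 80.2 to 128 CPM on NCD and 91.2 to 119 CPM on HFD (0.03 ± 0.22, adjusted p = 0.941). *Xkr8*, the scramblase that exposes phosphatidylserine in apoptosis, was at 7.37 to 11.1 CPM and 7.62 to 11.04 CPM (-0.08 ± 0.26, adjusted p = 0.845).

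Of 15 genes that control the TAM receptors and their ligands, 3 were higher with all mice and none lower (median 0.40). *Adam17*, the protease that sheds Mertk from the cell surface, was at 38.4 to 50.4 CPM on NCD and 82.9 to 93.7 CPM on HFD (0.98 ± 0.16, adjusted p = 0.026), and *Adam10*, which sheds Axl, passed without NCD mouse 1 (0.87 ± 0.11, adjusted p = 0.00929). The transcription factor gene *Klf4* rose by 0.90 ± 0.19 on the log2 scale (adjusted p = 0.0454). The liver X receptors, which are known to induce *Mertk*, did not pass, with 0.17 ± 0.49 for *Nr1h3* (adjusted p = 0.839) and -0.04 ± 0.20 for *Nr1h2* (adjusted p = 0.92). Without NCD mouse 1 their partner *Rxra* fell by 0.87 ± 0.15 (adjusted p = 0.0159) and *Pparg*, also the master regulator of adipocytes, fell by 1.11 ± 0.17 (adjusted p = 0.0123). In that fit 4 of 8 adipocyte markers were also called lower, where 10.1% of all genes were. With all mice 0 of 8 were called lower, where 1.9% of all genes were. The enzymes of vitamin K-dependent carboxylation, which Gas6 and protein S need in order to bind phosphatidylserine, did not pass, at -0.08 ± 0.14 for *Ggcx* (adjusted p = 0.716) and 0.40 ± 0.14 for *Vkorc1* (adjusted p = 0.13).

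**Figure D5:**
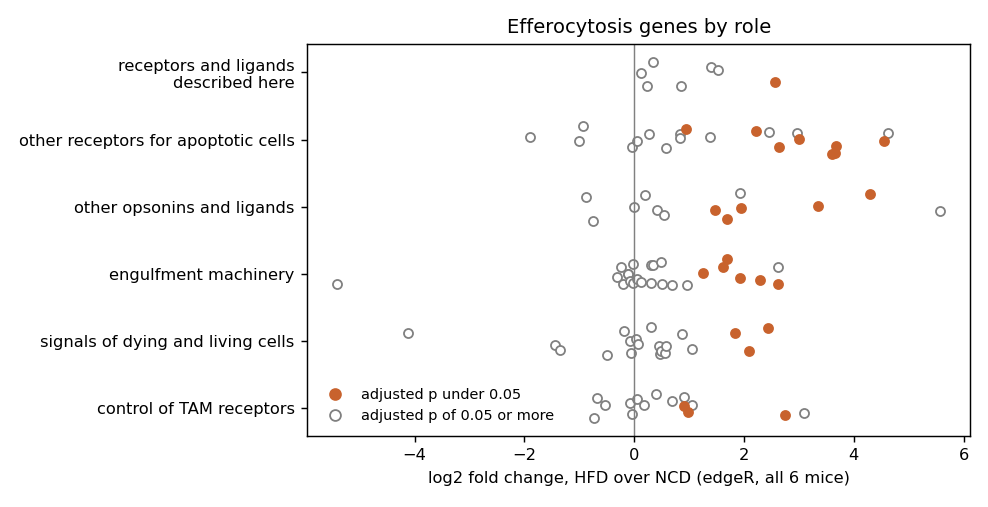
Log2 fold change on HFD with all mice for every tested gene of the 5 pathway lists and for the 7 members (1 point a gene), with genes past an adjusted p of 0.05 in a filled colour. Of the 94 list genes 25 passed, all to the right of 0, and *Mfge8* was the only member to pass.

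The genes whose levels most resembled those of each member were ranked by Pearson's r of log2(CPM + 0.5) over the 6 mice among 9894 genes, as a description, since these points share the diets and the libraries. *Mfge8* was most like *Arhgap25* (r = 0.998), *Zdhhc9* and *Kcnn4*, all highest in HFD mouse 1, with *Arhgap25* at 6.18 to 11.7 CPM on NCD and 166, 41.2 and 56.0 CPM in HFD mice 1 to 3. *Stab1* was most like *Cfp*, which encodes the complement regulator properdin (r = 0.999), *Alox5ap* and *Gsdmd*, all highest in HFD mouse 3. *Pros1* was most like *Sox17*, a transcription factor of arterial endothelium (r = 0.995), *Txndc15* and *Angptl4*. *Mertk* was most like *Psmd8*, a proteasome subunit (r = 0.990), *Ube2s* and *Rnf41*, of which *Psmd8* varied only from 96.0 to 118 CPM.

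*Axl* was most like *Kctd12* (r = 0.979), *Kctd18* and *Polr3c*. *Kctd12* was counted at 0 in NCD mouse 3 and at 51.4 to 226 CPM in the other mice, the only gene in the table at 0 in 1 mouse and at 10 CPM or more in the other 5, and NCD mouse 3 is the mouse in which *Axl* was low. *Tyro3* was most like *Atf7ip*, *Zswim8* and *Ift22* (r = 0.952 for the first), and *Gas6* most like *Dnajb1*, *Pkdcc* and *Bok* (r = 0.966 for the first). Among the members, the closest pair was *Pros1* and *Stab1* (r = 0.974), followed by *Pros1* and *Mfge8* (r = 0.857) and *Axl* and *Tyro3* (r = 0.833), while *Gas6* reached at most 0.276 with any of the others.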

How the data were processed

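RNA of gWAT from 6 mice was sequenced as poly(A)-selected TruSeq mRNA libraries (the stranded kit, per the labels). The authors deposited a table of raw read counts per gene, 1 column a mouse, and no normalised unit was used. Their processing notes name the mouse builds mm10 and GRCm38 and the tools bcl2fastq 2.20.0, Trimmomatic, HISAT2 2.1.0, StringTie 1.3.4d and DESeq2, without roles; the counting options and strand setting were not stated. Without a stated strand, reads of overlapping genes on opposite strands could be added together. The column of HFD mouse 3 carries the number 4 in its name. 0 value columns lacked a sample. Of 19790 gene identifiers, 19742 matched a symbol in the RefSeq table of GRCm38.p6.

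Counts were scaled by TMM (factor 0.496 for NCD mouse 1) and genes kept by filterByExpr (count minimum 10, total 15). Diets were compared by edgeR 4.0.16 (R 4.3.3) quasi-likelihood tests across all tested genes with Benjamini-Hochberg adjustment and a threshold of 0.05. SEs were taken as the size of each log2 fold change over the root of its F statistic. DESeq2 1.42.0 was an alternative. Fits were tested on simulated data with known changes. Seminal vesicle RNA was not set to differ between the simulated libraries, so that test does not cover the admixture found here. Ratios were compared by exact two-sided permutation tests. Exon lengths were the union of GENCODE basic exons. The depth limited *Tyro3*, at 58 to 209 counts a mouse. No replicates agreed within sampling noise. No label says more of the mice than a replicate number, so p-values measure the spread between these samples.

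The 7 members and all lists were chosen with earlier results of these data known. Genes named with values were the members, the 3 largest rises and falls per pathway list among genes past the threshold at a mean of at least 1 CPM, and per member the 3 most alike genes of at least 10 CPM. *Itgav*, *Itgb3*, *Itgb5*, *Timd4*, *C1qa*, *C1qc*, *Tub*, *Tulp1*, *Dock1*, *Rac1*, *Cd47*, *Xkr8*, *Nr1h2*, *Nr1h3*, *Ggcx* and *Vkorc1* were named in addition for their ties to the members, after their values had been seen, as was the marker *Cd163*. A gene that this rule names is not reported here. Alternatives were other scalings, removal of the 11 seminal vesicle genes, no filter, DESeq2, a replicate block and each mouse left out.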

Additional observations from a re-analysis of the deposited data

How the results depend on the processing

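The count of members past the threshold (1 with all mice) was also 1 with median-of-ratios scaling, with total counts alone and without the 11 seminal vesicle genes. It was 0 with no filter on low counts, 3 with DESeq2, and from 0 to 3 when each mouse was left out, with 3 only without NCD mouse 1. The count of other efferocytosis genes (25) was 41 with DESeq2 and from 0 to 38 when each mouse was left out, with 38 without NCD mouse 1 and 0 without any other. Over all genes, leaving out a mouse other than NCD mouse 1 left 2 to 7 genes called, DESeq2 called 3904 and no filter 803, against 1139 in the reported test. Without NCD mouse 1, the 3 members called were 3 with median-of-ratios scaling and without the seminal vesicle genes and 4 with DESeq2 (choices added after seeing the data). Total counts alone moved the median log2 fold change of the members to 1.48 and that of all genes from -0.08 to 0.45.

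Of the 12 alternatives, *Mfge8* passed in 5, *Pros1* and *Stab1* in 2 each, and the other members in none, with estimates from 1.82 to 2.97 for *Mfge8*, 1.10 to 1.76 for *Pros1*, 1.25 to 1.91 for *Stab1*, 0.50 to 1.48 for *Axl*, 0.08 to 0.66 for *Mertk* and 0.12 to 0.95 for *Tyro3*. *Gas6* changed sign without HFD mouse 2 (-0.17) and was at 0.35 without HFD mouse 1 and at 0.61 with total counts alone. The *Mfge8* to macrophage marker ratio, whose log2 difference was 0.08, ran from -0.48 without HFD mouse 1 to 0.41 without HFD mouse 3 and was -0.06 without NCD mouse 2 (mice left out after seeing the data). The cause of these shifts was not tested.

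With the replicate number as a replicate block, 0 members and 0 other efferocytosis genes passed, and 12 genes in all. At an unadjusted p under 0.05 the block left 3 of the 7 members, where it left 3571 of all 15241 tested genes. Same-numbered mice did not deviate together (correlations of -0.050, -0.031 and -0.0068). With so few mice a diet this cannot exclude that the numbers pair the mice, and no label states a pairing. The *Gas6* to *Pros1* ratio had an exact p of 0.25 under a paired sign-flip test, the smallest that 3 pairs allow.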
